A study of Mus musculus with 6 samples.

Results

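The mesothelium is the sheet of flat cells that lines the abdominal cavity and wraps the organs and fat pads inside it. It secretes the lubricating film of the serosal surface and bears a surface coat of mucins and anchored glycoproteins. Epididymal fat lies inside the cavity and has such a covering, whereas fat under the skin does not, so transcripts of mesothelial cells are known as a mark of visceral fat. The genes of these cells followed here were Msln, Upk3b, Upk1b, Lrrn4, Wt1, Muc16, Bnc1 and Gpm6a. They were found by their symbols in the platform annotation, which gave 13 probe sets for 8 genes, out of 34945 probe sets that carry 1 symbol. All 13 passed the filter on low values, a mean of at least 4.88 on the log2 scale, the 40th percentile of all probe sets.

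The tissue was white fat of male C57BL/6 mice aged 16 weeks, on chow and fed freely, taken from the epididymal pad by the design text and called gonadal and visceral in the sample labels. Control mice were FTO flox/flox. AFO mice were Adiponectin-cre FTO flox/flox, so all animals carried floxed Fto, the gene of an RNA demethylase, and the groups differed in a Cre driven by the adiponectin promoter, which acts in fat cells. Each genotype had 3 arrays, numbered 1 to 3, and each array held RNA of an independent pool. Pool numbers here are the replicate numbers of the sample titles. The titles do not say that arrays of equal number share anything, so pool 2 means 1 array of each genotype. How many animals made a pool is not given in the sources used here. Values are log2 levels from 3' expression arrays, and their precision is limited by there being 6 arrays. The array medians lay between 5.35 and 5.43. Fto itself read 6.11, 6.20 and 5.59 in control and 6.13, 5.45 and 5.95 in AFO pools 1, 2 and 3, which overlap. Whether its probe set lies in the deleted part is not given, so genotype rests on the labels. In a bulk sample, fewer mesothelial cells and less RNA per cell cannot be told apart.

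The arrays numbered 2, of both genotypes, stood apart from the other 4 before any genotype difference. On the first principal component, with 67.6% of the variance, the arrays of pool 2 lay at 37.2 (control) and 57.5 (AFO), and the other 4 lay between -28.0 and -19.6. All 8 mesothelial genes followed this split. On the 4 arrays of pools 1 and 3 their 13 probe sets read between 6.95 and 10.13, all above the filter level. On the arrays of pool 2 they read between 3.19 and 6.31, and 6 of the 13 lay below the filter level in either genotype. The arrays of pools 1 and 3 thus carried the mesothelial transcripts that the labelled tissue should hold, and those of pool 2 had low levels of all 8 under the same label. Whether the pool 2 arrays hold the same fat depot as the other 4 was not tested, and each difference between genotypes over 6 arrays contains them.

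**Figure D1:**
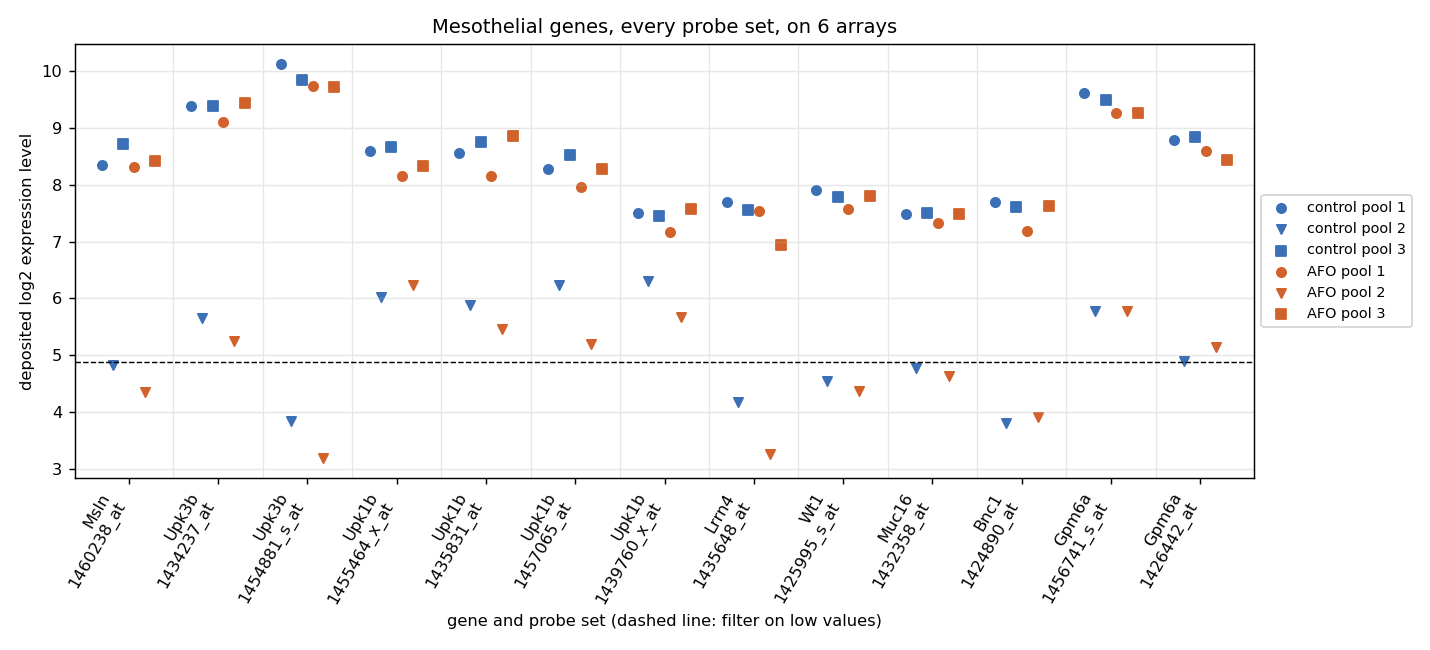
Deposited log2 level (vertical axis) of the 13 probe sets of 8 mesothelial genes (horizontal axis), with 1 point per array, blue for control and orange for AFO, circles, triangles and squares for pools 1, 2 and 3, and a dashed line at the filter level of 4.88. The triangles of pool 2 lie below the other points in each of the 13 probe sets. AFO minus control within a pool runs from -1.04 to 0.25 log2 units, both ends in pool 2.

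The surface coat genes come first. Msln encodes mesothelin, a glycoprotein tethered to the outer membrane that binds the mucin encoded by Muc16. Msln read 8.34, 4.82 and 8.71 in control pools 1, 2 and 3 and 8.32, 4.35 and 8.42 in the AFO pools of the same numbers. Muc16, which encodes a large membrane mucin of serosal surfaces, read 7.49, 4.78 and 7.50 in control and 7.33, 4.64 and 7.48 in AFO fat. In both genes the pool 2 arrays were low, the genotypes overlapped, and the gap between the lowest of the other 4 arrays and the higher pool 2 array was 3.49 log2 units for Msln and 2.55 for Muc16. The pool 2 readings of both genes lay below the filter level, where RMA values are compressed, so these gaps and their ranks are differences of readings and are not given as folds.

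The uroplakins are membrane proteins named for the lining of the bladder and also made by mesothelial cells. Upk3b, which encodes a protein with a single membrane span, read 9.39, 5.65 and 9.38 in control and 9.11, 5.25 and 9.43 in AFO pools 1, 2 and 3. Its second probe set read 3.85 and 3.19 in pool 2 and 9.72 to 10.13 elsewhere, both pool 2 readings being below the filter level. Upk1b, which encodes a tetraspanin, read 8.58, 6.02 and 8.66 in control and 8.16, 6.24 and 8.33 in AFO fat by the probe set with the highest mean, a gap of 1.92. The 4 Upk1b probe sets disagreed in size, with gaps of 1.92, 2.28, 1.74 and 0.85. The last was the single member probe set with a gap below 1 log2 unit. An ending in _x_at or _s_at marks probes that can match other transcripts, and the part of such matches in these differences was not tested. The only Wt1 probe set and the Gpm6a probe set with the highest mean, both given below, also end in _s_at. Markers of the bladder lining itself did not take part. Of 6 such genes 4 passed the filter, and their mean level ran from 5.97 to 6.15 in pool 2 and from 5.69 to 5.98 elsewhere. Upk3a and Krt20 lay below the filter.

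Wt1 and Bnc1 encode zinc finger transcription factors. Wt1 is best known from kidney and gonad development and stays on in adult mesothelium, and Bnc1 encodes basonuclin, found in epithelia and germ cells. Wt1 read 7.92, 4.55 and 7.78 in control and 7.57, 4.38 and 7.81 in AFO pools 1, 2 and 3, and Bnc1 read 7.70, 3.80 and 7.61 in control and 7.19, 3.91 and 7.62 in AFO fat. The gaps were 3.02 for Wt1 and 3.28 for Bnc1, again with both genotypes low in pool 2. The pool 2 readings of both genes lay below the filter level, so these gaps are differences of compressed readings. Wt1os, transcribed antisense to Wt1 and a separate gene on the array, read between 2.30 and 2.78 on all 6 arrays, far below the filter level, where a lower level in pool 2 could not be seen. Wt1 is also made in testis, and of 7 testis genes on the array 3 passed the filter. Their mean level was 6.21 and 6.22 in pool 2 and 5.91 to 6.50 elsewhere. This mean hides single genes, named after their values were seen. Prm1 peaked at 7.8 on the array of control pool 1 and at 7.5 on that of AFO pool 3. The rest read 6.3 to 6.8. Below the filter, Tnp1 (6.01, 5.26), Prm2 (6.12, 5.58) and Tnp2 peaked on the same arrays. Amh, Star and Rhox5 read highest on a pool 2 array.

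Lrrn4 and Gpm6a carry names from the nervous system, where a leucine-rich repeat membrane protein and a neuronal membrane glycoprotein were described. Lrrn4 read 7.69, 4.18 and 7.55 in control and 7.54, 3.26 and 6.95 in AFO pools 1, 2 and 3, a gap of 2.76. Gpm6a read 9.61, 5.77 and 9.48 in control and 9.26, 5.78 and 9.25 in AFO fat, a gap of 3.47, and its other probe set had a gap of 3.28. Both genes were low in pool 2 of either genotype. The pool 2 readings of Lrrn4 lay below the filter level, where RMA values are compressed. The 5 nerve and Schwann cell genes that passed the filter had a mean level of 6.72 to 6.86 in pool 2 and 6.62 to 6.84 elsewhere. They went both ways: Stmn2, a neuronal gene, read 6.70 and 6.76 in pool 2 and 7.25 to 7.68 elsewhere, while Sox10, a Schwann cell factor, read 6.98 and 6.67 against 6.01 to 6.36.

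The split was wide against the rest of the transcriptome. Both pool 2 arrays lay at least 1 log2 unit below each of the other 4 for 8 of 8 mesothelial genes, and for 195 of 13453 tested genes, which is 1.45%. A gap of at least 2 log2 units was seen in 7 of the 8 (Upk1b was at 1.92) and in 0.193% of all genes, and one of at least 3 in 5 of the 8 and in 0.0669%. Ranked by the gap, Msln, Gpm6a and Upk3b stood at places 3, 4 and 5 of all genes, Bnc1 at 7, Wt1 at 9, Lrrn4 at 13, Muc16 at 15 and Upk1b at 29. Places 1 and 2 were held by Tcf21, a transcription factor of visceral mesenchyme (5.25), and Rspo1, a secreted enhancer of Wnt signalling (4.15). The pool 2 readings of Tcf21, Rspo1, Msln, Bnc1, Wt1, Lrrn4 and Muc16 lay below the filter level. Their gaps and ranks are thus differences of compressed readings. Pool number is not a group of the study, and its arrays are set apart here by number alone, so no test was made. Measured within a genotype, pool 2 minus the mean of pools 1 and 3 had a median over the 8 genes of -3.57 in control and -3.48 in AFO fat, against -0.075 and -0.089 over all tested genes.

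**Figure D2:**
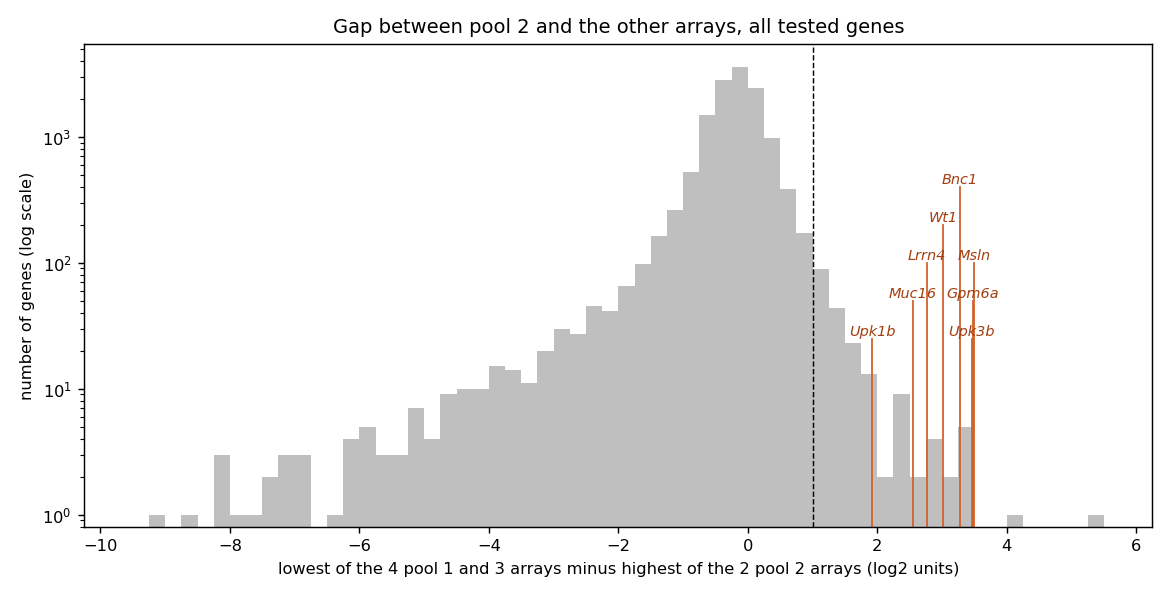
Number of tested genes (vertical axis, log scale) by the gap in log2 units between the lowest of the 4 arrays of pools 1 and 3 and the higher of the 2 pool 2 arrays (horizontal axis), with the 8 mesothelial genes marked by orange lines whose height carries no value, and a dashed line at 1 log2 unit. All 8 genes lie to the right of the dashed line, between 1.92 and 3.49, where 195 of 13453 genes lie.

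Apart from pool 2, the mesothelial genes were steady from array to array. Over the 4 arrays of pools 1 and 3 the range of a gene ran from 0.18 log2 units for Muc16 to 0.74 for Lrrn4, with a median of 0.38, close to the median of 0.36 over all tested genes. The wide range of Lrrn4 came from AFO pool 3, at 6.95 against 7.54 to 7.69 on the other 3 arrays. The profile over the 6 arrays differed most from the common one in Upk1b, whose centred values lay 0.57 log2 units (root mean square over 6 arrays) from the median profile of the 8 genes, and least in Gpm6a, at 0.10, and Wt1, at 0.11.

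RefSeq promoter sequences of build GRCm38.p6, from 250 bases before to 50 bases after the start, were matched for 5 of the 8 genes, Upk3b, Lrrn4, Muc16, Bnc1 and Gpm6a, with 2 starts for Gpm6a. Msln, Upk1b and Wt1 had no entry in the table. Since these genes moved together across arrays, 3 of the promoters are shown to compare what they hold, each 5′ to 3′ on the strand of the gene, with capitals for matches to the letters GNGTGGGNG, a site of the WT1 type, and GGAATG, the core bound by TEAD factors, each searched on both strands. The promoter of Upk3b lies at chr5:136038246-136038545 (+), that of Lrrn4 at chr2:132880813-132881112 (-) and that of Bnc1 at chr7:81992250-81992549 (-).
Upk3b: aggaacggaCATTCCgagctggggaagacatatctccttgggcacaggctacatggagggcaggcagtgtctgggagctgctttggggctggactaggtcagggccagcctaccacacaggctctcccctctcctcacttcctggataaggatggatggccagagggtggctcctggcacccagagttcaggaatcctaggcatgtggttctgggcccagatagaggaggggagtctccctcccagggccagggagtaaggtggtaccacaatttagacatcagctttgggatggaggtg
Lrrn4: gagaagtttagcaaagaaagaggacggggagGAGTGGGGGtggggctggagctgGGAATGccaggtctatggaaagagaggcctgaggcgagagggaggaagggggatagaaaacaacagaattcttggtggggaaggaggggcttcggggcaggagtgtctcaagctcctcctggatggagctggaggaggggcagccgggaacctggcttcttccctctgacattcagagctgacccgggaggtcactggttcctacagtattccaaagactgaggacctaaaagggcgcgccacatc
Bnc1: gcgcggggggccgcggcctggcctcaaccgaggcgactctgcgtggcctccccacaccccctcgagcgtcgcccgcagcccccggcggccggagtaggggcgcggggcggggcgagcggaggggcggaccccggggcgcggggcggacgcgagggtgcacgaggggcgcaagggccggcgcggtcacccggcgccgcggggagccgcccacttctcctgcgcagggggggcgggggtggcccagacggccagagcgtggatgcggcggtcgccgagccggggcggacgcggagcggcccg
Bnc1 held neither of these letter runs in this window. The promoters differed in base composition. Bnc1 had 83.3% G and C, 50 CG dinucleotides and 6 matches to the GC box GGGCGG, while Upk3b had 58.7% and 2 CG, Lrrn4 58.0% and 7, and Muc16 46.7% and 1. The letters of the WT1 type were found in 1 of the 6 promoters, that of Lrrn4 (from base -219, counted from the start), and in 14.3% of 32851 promoters. The TEAD letters were found in 3 of the 6, those of Upk3b, Lrrn4 and the upstream start of Gpm6a, and in 14.7% of all. The GC box was in 2 of the 6 and in 35.7% of all, and the letters TATAAA, of the TATA box, in 1 of the 6 and in 13.6% of all. Of the promoters shown, only that of Bnc1 held GC box letters, and it has no capitals.

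The design sets AFO against control fat, here for genes of a cell type that the adiponectin Cre is not meant to reach. All 8 had a lower mean in AFO fat, with differences from -0.56 to -0.11 log2 units and a median of -0.19, where 54.3% of all tested genes were lower and their median was -0.014. None of the differences passed. In limma's unpaired fit over 13453 genes 0 genes, or 0%, had an adjusted p under 0.05, 139 (1.03%) had an unadjusted p under 0.05, and the smallest unadjusted p among the 8 was 0.700. With pool number as a block 581 genes (4.32%) had an unadjusted p under 0.05 and 2 (0.0149%) passed, Bex1 and Mlf1, and neither is mesothelial (named after their values were seen). Groups without overlap were seen in 0 of the 8 genes and in 3.5% of all genes, 1.47% with AFO lower and 2.03% with AFO higher.

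The differences were small beside the spread between pools. Msln was at 7.29 ± 2.15 (SD, n = 3) in control and 7.03 ± 2.32 in AFO fat, or -0.27 (standard error 1.43, 95% interval -3.71 to 3.17). Upk3b was at 8.14 ± 2.16 and 7.93 ± 2.32, a difference of -0.21 (interval -3.66 to 3.24). Lrrn4, with the widest difference of the 8, was at 6.47 ± 1.99 in control and 5.92 ± 2.32 in AFO fat, or -0.56 (interval -3.88 to 2.76). The other 5 genes differed by -0.11 to -0.19, namely Muc16 (-0.11), Bnc1 (-0.13), Wt1 (-0.16), Upk1b (-0.18) and Gpm6a (-0.19), with standard errors from 0.86 for Upk1b to 1.37 for Bnc1. Each of the 8 had a limma adjusted p of 1.00. The standard errors contain the low pool 2 arrays, and differences of about 2 log2 units in either direction lie inside these intervals, apart from the upper bound for Upk1b at 1.89.

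Arrays of equal number were then set against each other, since their deviations ran together across all genes. In pool 1 AFO was lower in 8 of 8 genes, from -0.51 for Bnc1 to -0.030 for Msln, and in 13 of 13 probe sets, where 44% of all genes were lower. In pool 2 it was lower in 5 of 8, from -0.92 for Lrrn4 to 0.22 for Upk1b, where 54.5% of all genes were lower, and in pool 3 in 5 of 8, from -0.60 for Lrrn4 to 0.051 for Upk3b, where 55.1% were. Both upper ends and these counts depend on the probe set read. The other Upk1b probe sets differed by -0.42, -1.04 and -0.63 in pool 2, and the second Upk3b probe set by -0.12 in pool 3. The medians over the 8 genes were -0.32, -0.15 and -0.13 in pools 1, 2 and 3. Msln, Lrrn4 and Muc16 were lower in AFO fat within all 3 pools, a pattern of 12.8% of all genes. In pool 2 the readings of these genes lay below the filter level in both genotypes, where RMA values are compressed. Their pool 2 differences, with -0.92 for Lrrn4 among them, are therefore differences of compressed readings. With pool number as a block the standard error of Lrrn4 shrank to 0.17 and that of Msln to 0.13, and the limma adjusted p of each of the 8 was 0.990.

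**Figure D3:**
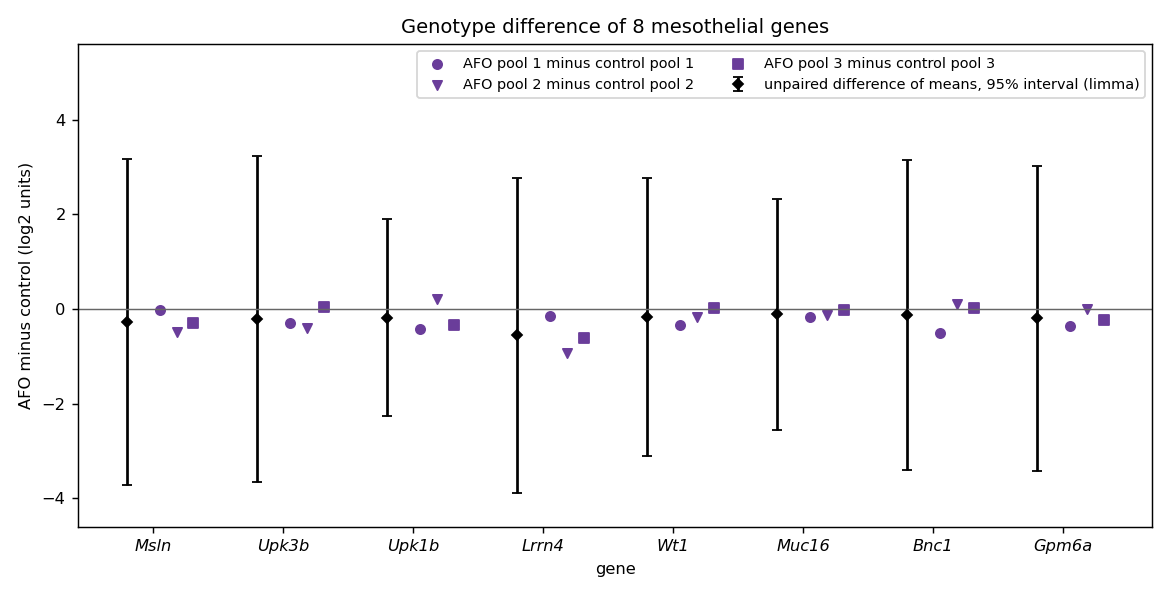
AFO minus control in log2 units (vertical axis) for 8 mesothelial genes (horizontal axis): black diamonds give the unpaired difference of 3 arrays against 3 with limma's 95% interval, and purple circles, triangles and squares the difference within pools 1, 2 and 3. All intervals span 0, and the within-pool points lie between -0.92 and 0.22, far inside them.

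The sign of the unpaired differences hung on single arrays. Without AFO pool 2 the median over the 8 genes was 0.95 with 8 of 8 higher in AFO fat, without control pool 2 it was -1.43 with 8 of 8 lower, and without control pool 1 it was 0.38 with 8 of 8 higher. Without control pool 3 it was 0.38 with 7 of 8 higher. Without AFO pool 1 it was -0.71 and without AFO pool 3 -0.80, each with 8 of 8 lower. The medians over all tested genes lay between -0.033 and 0.021 in these fits. The 8 genes moved together across arrays, so these counts are not 8 separate results. Leaving out both pool 2 arrays was an alternative added once the data had been seen. In 2 arrays per genotype it gave a median of -0.21 with 8 of 8 lower, against -0.0093 over all tested genes. The differences then had standard errors near those within pools. Upk1b differed by -0.38 (SE 0.16, 95% interval -0.75 to -0.0082, unadjusted p 0.0462 and adjusted p 0.993 by limma), Lrrn4 by -0.38 (SE 0.22) and Gpm6a by -0.29 (SE 0.16). In that fit 0.676% of all genes passed, 0 of the 8 among them, and 2.01% with the block added, again 0 of the 8. The Upk1b value rests on the probe set with the highest mean, which ends in _x_at and differed by -0.42 in pool 1 and -0.34 in pool 3. The other Upk1b probe sets differed by -0.39, -0.31 and -0.34 in pool 1 and by 0.10, -0.25 and 0.13 in pool 3. They were not fitted without the pool 2 arrays.

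Other genes of mesothelial cells were read from a list of 22, of which 20 passed the filter. In 9 of the 20 both pool 2 arrays were at least 1 log2 unit below the rest, and these 9 are named for that gap, after their values were seen. Rspo1 read 8.04, 3.56 and 7.71 in control and 8.33, 3.41 and 8.21 in AFO pools 1, 2 and 3. Slpi, a secreted protease inhibitor of epithelial surfaces, had a gap of 2.99, Dmkn of 2.33, Aldh1a2, a retinoic acid enzyme that is classically mesothelial, of 2.02, and Nkain4 of 1.76. Efemp1, Ildr2, the claudin gene Cldn15 and the mucin-type surface protein gene Pdpn had gaps of 1.48, 1.44, 1.18 and 1.03. At the other end Calb2, the calretinin gene used as a mesothelial stain, read 5.11 to 5.46 on all 6 arrays, and Mpzl2 and Ezr read higher in both pool 2 arrays than in the other 4 (Calb2 and Ezr were also named after their values were seen).

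Of 4 simple-epithelium keratins, Krt7 was low in both pool 2 arrays, at 5.62 for control and 4.43 for AFO against 6.18 to 6.51 elsewhere. The other 3 were low in AFO pool 2, as the 8 genes were, but not in control pool 2. On the pool 2 arrays Krt8 stood at 7.53 for control and 4.63 for AFO, Krt18 read 8.02 and 5.73, and Krt19 read 7.61 and 4.96. So in control pool 2 these 3 keratins were within the range of control pools 1 and 3 or within 1 log2 unit of it, while Msln, Upk3b and the others were low. In pools 1 and 3 Krt8 stood at 9.23 and 8.94 in AFO against 7.78 and 6.98 in control fat, and Krt18 at 8.55 and 8.71 against 7.06 and 7.06. Without the pool 2 arrays both passed (limma adjusted p 0.0349 for Krt8, a difference of 1.70 with SE 0.26, and 0.00465 for Krt18, 1.57 with SE 0.16), the 2 calls among the 20 list genes. In that fit 0.676% of all tested genes passed. These keratins are made by simple epithelia in general. AFO pool 1 also held epididymal epithelium transcripts (mean level of the list 8.33), while AFO pool 3 read 4.86. The part of other epithelia in the keratin differences was not tested. Krt8 and Krt18 were named after their values were seen. With all 6 arrays 0 of the 20 passed, 11 were higher and 9 lower in AFO fat, and the median was 0.023. The 2 genes of the list with the smallest unadjusted p were Krt19, at -0.76 (SE 0.84), and Mpzl2, a cell adhesion gene, at 0.41 (SE 0.54), both with a limma adjusted p of 1.00.

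**Figure D4:**
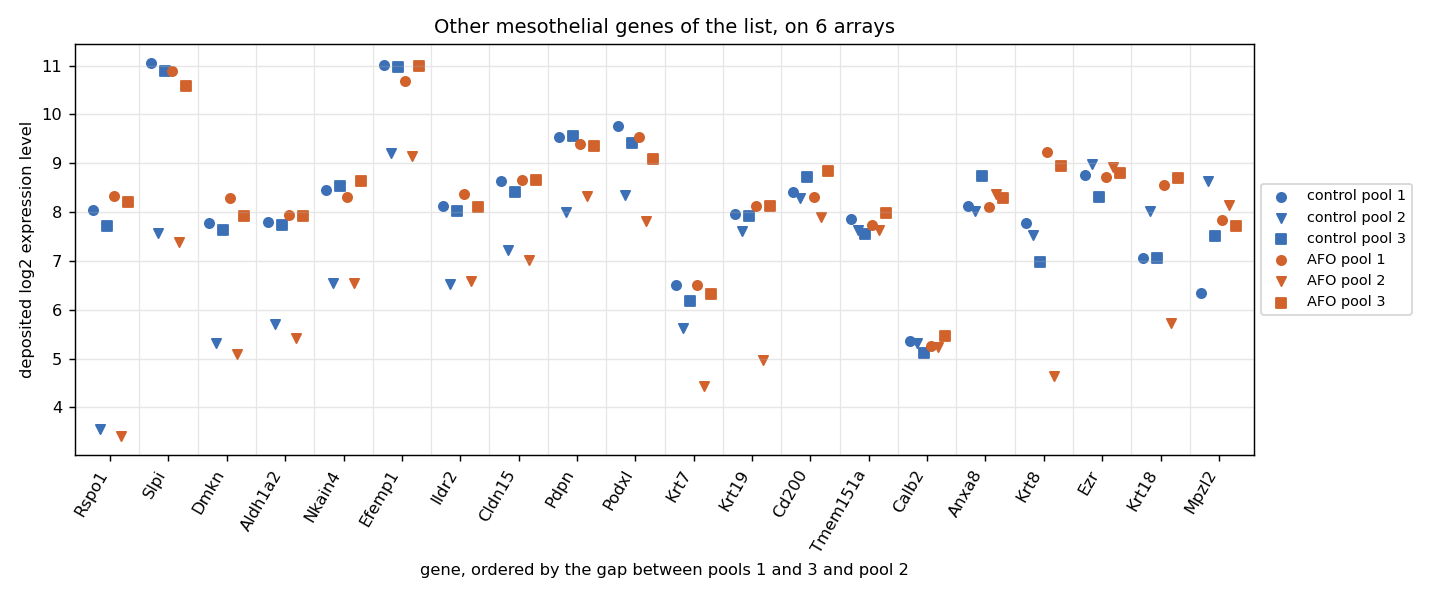
Deposited log2 level (vertical axis) of 20 other mesothelial genes (horizontal axis, ordered by the gap between pools 1 and 3 and pool 2), with colours for genotype and shapes for pool. From Rspo1 to Pdpn the triangles of pool 2 lie at least 1 log2 unit below the other points, while for Krt8, Krt18 and Krt19 the blue triangle (control pool 2, 7.53, 8.02 and 7.61) lies far above the orange one (4.63, 5.73 and 4.96).

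Markers of other cells moved with the split, and their part in it was not tested. The mean level of the 8 mesothelial genes was 4.95 and 4.73 in control and AFO pool 2 and 8.06 to 8.34 elsewhere. Transcription factors of visceral fat had a mean level of 5.83 and 5.73 in pool 2 and 7.27 to 7.49 elsewhere (8 of 8 listed genes passed the filter), led by Tcf21 at 2.58 and 2.64 in pool 2 and 7.89 to 8.09 elsewhere. Gata6 had a gap of 0.54 and Gata4 none. Those of subcutaneous fat (7 of 8 passed) had 7.21 and 6.87 in pool 2 and 5.84 to 6.39 elsewhere. Tbx15 read 6.97 and 7.65 in pool 2 and 4.77 to 5.55 elsewhere, Shox2 read 7.75 and 7.03 against 4.35 to 4.99, and En1 lay below the filter on all 6 arrays. Tbx15 and Shox2 were the 2 of the 7 that lay at least 1 log2 unit higher in both pool 2 arrays. Hoxc9 read 6.61 and 6.29 in pool 2 and 6.37 to 6.59 elsewhere, and Meox1 was lower, at 6.93 and 7.08 against 7.23 to 7.61.

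Most B cell genes and some lymph node genes were high where the mesothelial genes were low. Both pool 2 arrays lay at least 1 log2 unit above each of the other 4 for 5 of 6 B cell genes and 2 of 4 lymph node stroma genes, and for 1.3% of all tested genes. B cell markers (6 of 10 passed) had a mean level of 7.91 and 8.47 in pool 2 and 5.02 to 5.57 elsewhere, and lymph node stroma markers (4 of 7) had 9.37 and 9.46 against 6.79 to 7.36. Glycam1 and Cxcl13 carried the latter mean, while Chst4 was lower in pool 2, at 5.66 and 5.69 against 5.86 to 6.34, and Lyve1 read 10.01 and 9.92 against 9.60 to 10.34. Skeletal muscle markers (10 of 12) had 9.25 and 11.70 in pool 2, yet also 9.47 in AFO pool 1, where the mesothelial genes read as in pool 3, and 4.73 to 5.03 on the remaining 3 arrays. Epididymal epithelium markers (4 of 12) stood at 8.33 in AFO pool 1 and 4.86 to 5.20 on the other 5 arrays. AFO pool 1, with muscle and epididymal transcripts, was also the array where all 8 mesothelial genes were below the control array of its number, and the part of these transcripts in that difference was not tested.

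The fat cells themselves and the stroma changed less. Adipocyte markers (10 of 12) had a mean level of 11.49 and 11.06 in pool 2 and 11.24 to 11.68 elsewhere, and adipose progenitor markers (11 of 12) had 9.24 and 9.37 against 9.80 to 9.89. Endothelial markers (8 of 8) had 8.23 and 7.98 against 8.43 to 8.80, smooth muscle markers (6 of 6) 8.11 and 8.24 against 8.46 to 8.97, and macrophage markers (9 of 10) 8.86 and 9.02 against 8.65 to 9.16. Single genes departed from these means. Timd4, a macrophage gene, read 7.45 and 7.80 in pool 2 against 4.31 to 5.44. It was the 1 of the 9 at least 1 log2 unit higher in both pool 2 arrays, and 0 were that much lower. Of the smooth muscle genes, Des read 7.60 and 9.39 against 7.08 to 7.69, and Cnn1 5.59 and 5.13 against 6.50 to 7.16. Timd4 and Cnn1 were named after their values were seen. In AFO against control fat 0 genes of these 14 lists passed the unpaired limma test, with or without the pool 2 arrays. Without those arrays and with the block, 2.01% of all genes passed. Among them 6 of 10 skeletal muscle genes, Lcn8 and Hoxc10 were higher, and Itgam and Timd4 lower. In pools 1 and 3 AFO minus control was 6.20 and -0.11 for Myh1, 5.32 and -0.14 for Tnni2, and 6.36 and 0.32 for Myh4. It was 4.11 and 0.59 for Ckm, 4.43 and 0.63 for Atp2a1, and 2.29 and 1.24 for Acta1. Lcn8 read 8.72 in AFO pool 1 and 4.44 to 4.92 elsewhere. The muscle and Lcn8 calls thus rest mainly on AFO pool 1, and on limma's draw of the spread toward other genes.

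**Figure D5:**
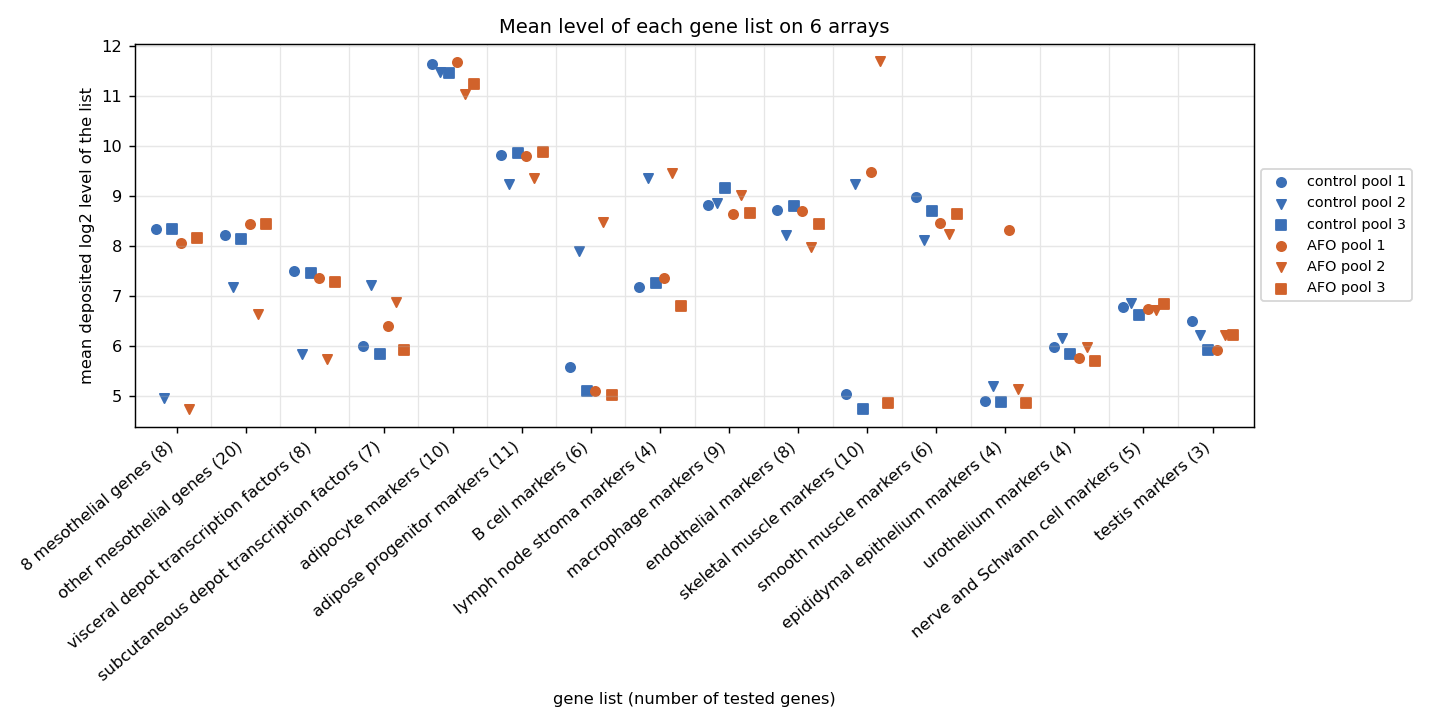
Mean deposited log2 level (vertical axis) of the tested genes of 16 lists (horizontal axis, number of genes in brackets) on 6 arrays, blue for control and orange for AFO, circles, triangles and squares for pools 1, 2 and 3. The triangles of pool 2 are the lowest points for the 8 mesothelial genes (4.95 and 4.73) and the visceral factors (5.83 and 5.73) and the highest for B cell (7.91 and 8.47) and lymph node markers (9.37 and 9.46), while adipocyte markers stay between 11.06 and 11.68.

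The genes nearest to the mesothelial profile were found by the root mean square difference between centred levels over 6 arrays. Outside the 8, the closest was Slpi at 0.14 log2 units, followed by Fgf1, a fibroblast growth factor (0.21), Sult1e1, an oestrogen sulfotransferase (0.23), Igfbp2, a binding protein of insulin-like growth factors (0.24), Ptgis, the prostacyclin synthase (0.33), and Slc39a8, a zinc transporter (0.34). Ccbe1 (0.38), the basement membrane collagen gene Col4a5 (0.39), the matrix proteoglycan gene Fmod (0.42) and the cadherin gene Cdh11 (0.43) completed the 10. Of these 10, Slpi is in the list of other mesothelial genes. Slpi read 11.06, 7.58 and 10.90 in control and 10.88, 7.38 and 10.58 in AFO pools 1, 2 and 3, lower by about as much in pool 2 as the 8 genes in both genotypes. Since pool 2 makes up most of each profile, nearness here is mainly a low level of like size on those arrays.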

How the data were processed

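Total RNA of 6 fat samples was measured on Affymetrix 3' arrays. The deposited values are log2 levels per probe set, made by the authors with RMA (background correction, quantile normalisation, summary of probes) in Affymetrix Expression Console 1.4, per the submitters' processing notes. RMA hides shifts shared by most genes and draws dim signals together. The genome build behind the probe sets is not given in the sources used here.

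Of 45101 probe sets 34945 had 1 gene symbol in the platform annotation, 932 several and 9160 none, beside 64 controls. Probe sets of 1 symbol whose mean reached the 40th percentile (4.88) entered, the brightest on average standing for its gene, which left 13453 genes. The genotypes were tested with limma 3.58.1 (R 4.3.3; empirical Bayes with trend, unpaired, Benjamini-Hochberg over all genes, threshold 0.05), tested on simulated data. The members, the lists and the alternatives were chosen with earlier results of these data known. The naming rule took the 8 members, Fto, 6 depot factors where they passed the filter, the 10 nearest profiles and, from each list, the called genes or else the 2 with the smallest p. For lists other than the mesothelial one the text departs from it and gives mean levels instead. Genes named for their values are marked as such where they appear, apart from Sox10, Meox1, Glycam1 and Lyve1. These were also named after their values were seen.

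Samples of equal pool number deviated together from the genotype means (correlation across genes 0.594, 0.799 and 0.589 for pools 1, 2 and 3), which met the rule for pairing. Unmatched arrays of pools 1 and 3 also correlated (0.362 and 0.441), so part of these values is the contrast with pool 2. The titles give the numbers but not what is shared. P-values of the unpaired fits are set against the spread between these pools. Those of the fits with the block are set against the spread of the genotype difference across pool numbers. In both, limma's empirical Bayes step draws the spread of each gene toward that of other genes. With so few arrays a gene can pass although its differences disagree between pools, as Myh1 did with the block and without the pool 2 arrays.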

Additional observations from a re-analysis of the deposited data

How the results depend on the processing

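The 8 differences kept their sign and stayed above the threshold without a filter, with a filter at the 60th percentile, with renewed quantile normalisation, median centring, other choices of probe set, other empirical Bayes settings, array weights and the replicate block. Array weights moved their median from -0.19 to -0.46. The count of called genes was 0 in these settings, except for 2 with the replicate block. Without both pool 2 arrays it was 91, and 270 with the block as well, both alternatives chosen after seeing the data. The block changed no call of a mesothelial gene.

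With each array left out in turn, 0 to 27 genes were called (27 without AFO pool 2), the median of the 8 ran from -1.43 to 0.95 and that of the other mesothelial genes from -0.46 to 0.40. Single genes ran from -1.50 to 1.07 (Msln), -1.46 to 1.13 (Upk3b), -1.05 to 0.49 (Upk1b), -1.70 to 0.77 (Lrrn4), -1.26 to 0.94 (Wt1), -1.01 to 0.81 (Muc16), -1.41 to 1.04 (Bnc1) and -1.45 to 0.97 (Gpm6a). The keratins ran from -0.65 to 1.65 (Krt8), -0.24 to 1.25 (Krt18) and -1.29 to 0.30 (Krt19), and Mpzl2 from -0.17 to 0.98. Without both pool 2 arrays Krt19 turned to 0.19, with or without the block. Array weights turned the median of the other mesothelial genes from 0.023 to -0.032. The count of genes low in both pool 2 arrays stayed between 160 and 235, with 273 probe sets where all were tested singly, and the gap of each of the 8 genes between 1.75 and 4.68. It has no value where a pool 2 array is left out. With 3 arrays per genotype and 1 low array in each, the unpaired standard errors of the 8 genes were 0.86 to 1.44; with the replicate block they were 0.11 to 0.17.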
